A study of Mus musculus with 24 samples.

Results

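The Sprouty and Spred genes are a small group of inhibitors that are switched on by the RAS-ERK pathway and then restrain it. The group comprised Spry1, Spry2, Spry4, Spred1 and Spred2, taken as the rows of the deposited expression table that carry these symbols, which made 5 genes of the 24273 in the table. They were followed by RNA sequencing in bone marrow-derived macrophages (BMDMs) of C57BL/6 mice, primary macrophages that were matured from marrow cells in L cell-conditioned medium. Cells came from mice that carried LysM-Cre, a Cre recombinase inserted at the lysozyme locus Lyz2 and so active in myeloid cells. The control group, LysM-Cre, was compared with FosKO, in which both Fos alleles were floxed (Fos fl/fl) and Cre was meant to delete Fos, a subunit of the transcription factor AP-1. The series text gives the controls LysM-Cre alone, whereas the methods give them 1 floxed Fos allele as well (Fos fl/+), and the values cannot tell these apart. Cells of each genotype were left untreated (0 h) or were stimulated for 0.5, 1 or 2 h with 100 ng/ml lipopolysaccharide (LPS), the component of Gram-negative bacteria that TLR4 senses. This made 24 libraries, 3 in each of 8 groups. Neither the age nor the number of mice behind them was given in the sources used here, so p-values describe the spread between these libraries.

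Growth factor receptors and TLR4 activate ERK1/2 through kinase cascades, and ERK in turn raises the transcription of its own inhibitors. Sprouty proteins are recruited to the membrane and block signalling between receptors and the ERK cascade, partly by binding the adaptor GRB2 and the ubiquitin ligase CBL. Spred proteins carry a related cysteine-rich domain and bring the RAS GTPase activator neurofibromin (the product of Nf1) to the membrane, and they are well expressed in blood-forming cells. In macrophages stimulated through TLR4 the route to ERK runs mainly through the kinase TPL-2, encoded by Map3k8.

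All values were normalised log2 values as deposited, so that a difference of 1 is a doubling, and a gene was called when the limma test across all tested genes gave a Benjamini-Hochberg adjusted p under 0.05. The reads behind each value are not given, so errors are those between libraries. Fos RNA went against the label at 0, 1 and 2 h of LPS, though not at 0.5 h. It averaged 11.11, 13.52, 11.15 and 9.52 along the LPS times in LysM-Cre and 12.60, 12.75, 12.78 and 12.80 in FosKO-labelled libraries, so it was lower there at 0.5 h and higher at the other times. From 0 to 0.5 h of LPS Fos rose by 2.41 in LysM-Cre and by 0.15, not called, in FosKO-labelled libraries. The difference in response was -2.26 (limma adjusted p 1.38e-09). A sum over the whole gene does not show whether the floxed part was lost, and genotypes below are those of the labels. Lyz2, which carries the Cre, was higher by 4.89 to 5.17 in FosKO-labelled libraries. The 18S ribosomal RNA transcript Rn18s-rs5 split the libraries into 19 with values from 18.57 to 19.39 and 5 with values from 16.65 to 17.00. At 0.5 h the low libraries were replicate 3 of LysM-Cre and replicate 1 of FosKO. At 1 h they were replicates 2 and 3 of LysM-Cre and replicate 1 of FosKO. Genotype differences of Spry1, Spry2, Spred1 and Spred2 at those times are therefore also given within each set. All 8 macrophage markers were high (9.07 to 15.38), B cell markers were below a linear value of 5 in every library, and so were Cd3e, Cd3g and Cd8a, although Cd4 reached 8.44 and was higher in FosKO-labelled libraries by 0.36 to 0.44 at the 4 times. The summed linear level of the 6 neutrophil markers in the table was 60.8 to 127 in LysM-Cre and 43.7 to 68.0 in FosKO-labelled libraries, with Ly6g, Elane and Camp below 5, and the 3 that were tested were called lower at 0, 1 and 2 h and 2 of them at 0.5 h. That of the 5 dendritic cell markers was 42.0 to 42.4 in LysM-Cre and 44.2 to 61.9 in FosKO-labelled libraries at 0.5 h, 48.1 to 59.1 and 58.7 to 68.1 at 1 h, and 127 to 136 and 99.1 to 102 at 2 h, with Flt3 and Siglech below 5 throughout. The dendritic cell markers did not move together. Ccr7 was called higher in FosKO-labelled libraries at 0.5 h (0.52), and Ccr7 (0.46) and Xcr1 (0.42) at 1 h, when Zbtb46 was not (-0.03). At 2 h Zbtb46 was called lower (-0.96), while Xcr1 (0.04) and Ccr7 (-0.03) were not called. The summed linear level of the 9 stromal markers in the table was 228 to 327 in LysM-Cre and 73.1 to 126 in FosKO-labelled libraries. Most of it in LysM-Cre came from Cspg4, which averaged 7.72 there and 5.23 in FosKO-labelled libraries on the log2 scale. At 2 h Postn was called higher (0.45) and Col3a1 lower (-0.53), with Pdgfra, Dcn and Thy1 below 5 throughout. That of the 4 endothelial markers was 331 to 431 in LysM-Cre and 504 to 1039 in FosKO-labelled libraries, mostly from Kdr, with Tek below 5. The part of these differences in the results below was not tested, and in bulk RNA fewer cells that express a gene cannot be told apart from less RNA per cell.

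The genes lie on separate chromosomes. On the GRCm38 build, in GENCODE vM21, Spry1 (ENSMUSG00000037211) spans chr3:37639947-37644598 on the plus strand and Spry2 (ENSMUSG00000022114) spans chr14:105891947-105896819 on the minus strand. Spred1 (ENSMUSG00000027351) spans chr2:117121374-117182279 and Spred2 (ENSMUSG00000045671) spans chr11:19924375-20024026, both on the plus strand with up to 7 exons. All are protein coding. A transcript on the other strand of Spry1, Gm42922, had values from -1.31 to -1.02 and did not pass the filter on low values, and per the methods the libraries were strand-specific.

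Promoter sequences are shown for Spry1 and Spry2, the pair that differed between the genotypes in the same direction at 2 h of LPS. They are the 250 bases upstream of the RefSeq start (GRCm38.p6), written 5′ to 3′ on the gene's strand. Capitals were reserved for matches to 5 motifs of factors that act early in macrophages, and there were none. The Spry1 window is chr3:37639697-37639946 on the plus strand, and the Spry2 window is chr14:105896820-105897069 on the minus strand.
Spry1: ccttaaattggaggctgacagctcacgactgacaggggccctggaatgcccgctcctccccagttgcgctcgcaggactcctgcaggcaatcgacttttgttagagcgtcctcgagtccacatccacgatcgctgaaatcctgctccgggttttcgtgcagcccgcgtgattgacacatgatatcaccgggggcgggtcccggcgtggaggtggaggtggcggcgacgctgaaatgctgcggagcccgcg
Spry2: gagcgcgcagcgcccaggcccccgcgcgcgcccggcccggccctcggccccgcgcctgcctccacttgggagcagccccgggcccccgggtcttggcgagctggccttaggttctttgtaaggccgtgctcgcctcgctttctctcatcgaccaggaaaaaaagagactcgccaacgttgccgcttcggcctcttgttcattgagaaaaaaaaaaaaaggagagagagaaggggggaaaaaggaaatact

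Both windows were rich in G and C, at 62.4% each against a median of 52.4% over 32851 promoter windows of the same length, and both held 23 CG dinucleotides. The motifs were searched on both strands, without mismatches, also in Spred1 and Spred2, and no motif contains another. The AP-1 motif TGANTCA occurs in 6.75% of all the windows, the cAMP response element TGACGTCA in 1.55%, the ETS motif CCGGAAG in 6.91%, the CArG box of SRF in 1.47% and the NF-kB motif in 7.25%. None of them was found in the windows of Spry1, Spry2, Spred1 or Spred2, which says only that these letters are not in these 250 bases. The GC content was 70.8% for Spred1 and 56.0% for Spred2.

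Spred1 was by far the most abundant of the group and Spry4 was close to the lower limit of the table. Compared per length, as log2 of the linear value per kilobase of annotated exon, LysM-Cre cells at 0 h had 10.08 ± 0.03 (SD, n = 3) for Spred1, 7.54 ± 0.07 for Spred2, 7.13 ± 0.04 for Spry2, 2.43 ± 0.12 for Spry1 and -1.66 ± 0.06 for Spry4. The order was the same in FosKO-labelled libraries at 0 h. Only Spred2 and Spry2 came close to each other. At 0.5 h their levels per kilobase were 7.60 ± 0.02 and 7.56 ± 0.04 in LysM-Cre, and 7.40 ± 0.05 and 7.45 ± 0.06 in FosKO-labelled libraries, so that they did not differ beyond their spread. By 2 h in LysM-Cre they were apart, at 7.59 ± 0.05 and 5.91 ± 0.13. After 1 h of LPS Spry1 had risen to 4.83 ± 0.12 per kilobase in LysM-Cre, still below Spry2 at 7.20 ± 0.11. Over the 24 libraries the normalised log2 values spanned 2.91 for Spry1, 1.80 for Spry2, 1.11 for Spred1, 0.59 for Spred2 and 0.66 for Spry4.

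**Figure D1:**
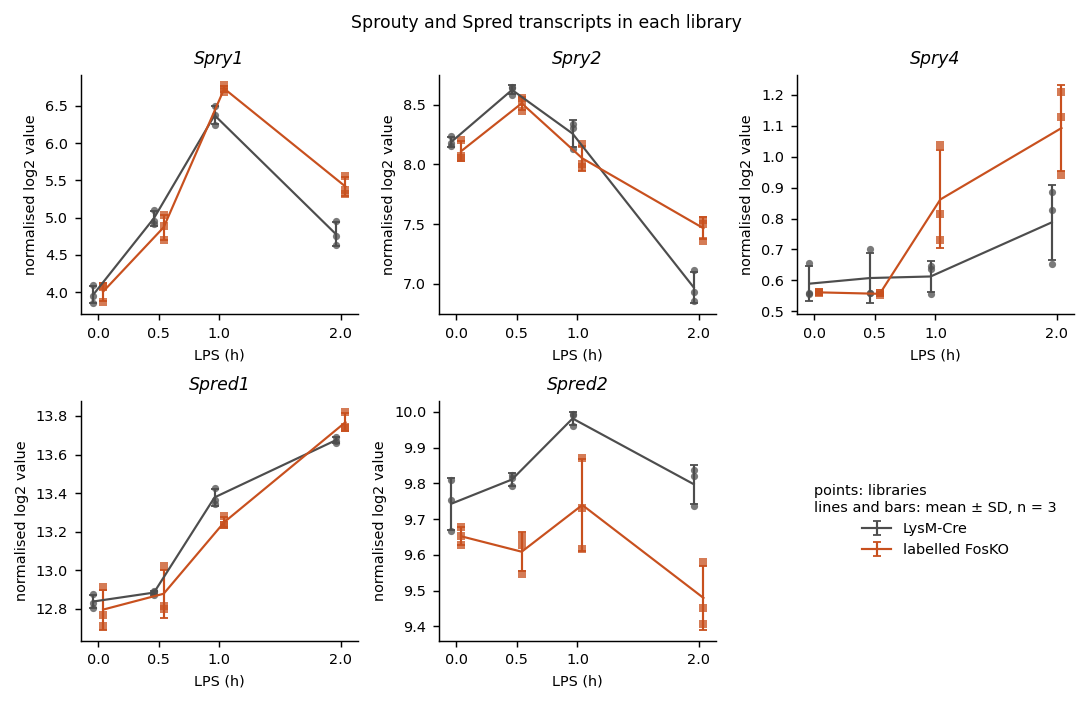
Normalised log2 value of each gene against hours of LPS (0, 0.5, 1 and 2), with 1 point per library, circles for LysM-Cre and squares for the FosKO-labelled libraries, and lines through the means with bars of 1 SD (n = 3). Each panel has its own scale. Spry1 peaks at 1 h in both genotypes, Spry2 falls to 2 h, Spred1 climbs, and Spred2 sits lower in FosKO-labelled libraries from 0.5 h.

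The question of how each inhibitor answers TLR4 was addressed by comparing each time of LPS with 0 h within a genotype. Spry1, a membrane-recruited inhibitor of receptor-to-RAS signalling, was the most inducible, and its rise was transient. In LysM-Cre the 3 libraries had 3.95, 4.10 and 3.86 untreated, 5.10, 4.96 and 4.92 after 0.5 h, 6.25, 6.38 and 6.49 after 1 h, and 4.95, 4.64 and 4.75 after 2 h. In the FosKO-labelled libraries they had 4.09, 3.87 and 4.06, then 4.70, 5.03 and 4.88, then 6.69, 6.77 and 6.73, then 5.56, 5.31 and 5.38. Every group after LPS lay above its own 0 h group without overlap, and the 1 h group was the highest of each genotype. The share of all tested genes that separated from 0 h in this way was not counted, here or for the genes below. At 2 h 60.8% of all tested genes were called in LysM-Cre and 62.1% in FosKO-labelled libraries. In LysM-Cre Spry1 rose 2.03-fold at 0.5 h, 5.29-fold at 1 h and 1.76-fold at 2 h, which are log2 changes of 1.02, 2.40 and 0.81 (SE 0.11 each, limma adjusted p 5.97e-07, 1.16e-13 and 1.13e-06). In the FosKO-labelled libraries it rose 1.82-fold, 6.60-fold and 2.66-fold, or 0.86, 2.72 and 1.41 (limma adjusted p 8.80e-06, 1.43e-14 and 2.66e-10). In the 19 high 18S libraries alone the rise at 1 h was 2.28 in LysM-Cre and 2.74 in FosKO-labelled libraries. From 1 to 2 h the LysM-Cre level fell by 1.59 and the FosKO-labelled level by 1.31.

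Spry2, of Spry1, Spry2 and Spry4 the one with the highest level per kilobase, rose briefly and then dropped below its starting level. LysM-Cre libraries had 8.24, 8.18 and 8.15 untreated, 8.58, 8.65 and 8.64 after 0.5 h, 8.31, 8.13 and 8.34 after 1 h, and 6.93, 6.86 and 7.11 after 2 h. The FosKO-labelled libraries had 8.05, 8.21 and 8.07, then 8.45, 8.56 and 8.53, then 7.98, 8.01 and 8.17, then 7.36, 7.53 and 7.50. In both genotypes the 0.5 h group was the highest and the 2 h group the lowest, each without overlap with 0 h, while the 1 h group overlapped 0 h. The rise at 0.5 h was 0.44 in LysM-Cre and 0.40 in FosKO-labelled libraries (SE 0.07 each, limma adjusted p 0.000259 and 0.000780). At 1 h the change from 0 h was 0.07 (95% interval -0.08 to 0.22) and -0.06 (-0.21 to 0.09), and neither was called. At 2 h Spry2 fell by 1.22 in LysM-Cre, a 2.34-fold drop, and by 0.65 in FosKO-labelled libraries, a 1.57-fold drop (limma adjusted p 4.11e-12 and 8.87e-08).

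Spred1, which recruits neurofibromin to the membrane, rose without a peak within the 2 h. In LysM-Cre its libraries had 12.81, 12.83 and 12.87 untreated, 12.89, 12.89 and 12.87 after 0.5 h, 13.34, 13.36 and 13.43 after 1 h, and 13.66, 13.67 and 13.69 after 2 h. In the FosKO-labelled libraries they had 12.71, 12.77 and 12.91, then 12.81, 12.80 and 13.02, then 13.23, 13.23 and 13.28, then 13.82, 13.74 and 13.74. The 0.5 h groups overlapped 0 h, and the 1 h and 2 h groups lay above it. The change at 0.5 h was 0.05 in LysM-Cre and 0.08 in FosKO-labelled libraries, with 95% intervals of -0.06 to 0.15 and -0.02 to 0.19, and was not called. At 1 h it rose by 0.54 and 0.45, and at 2 h by 0.84 and 0.97, which are 1.79-fold and 1.96-fold (SE 0.05 each, limma adjusted p 5.16e-12 and 3.92e-13 at 2 h). The size of these rises depended on the scaling, since after quantile normalisation they were 0.31 and 0.26 at 1 h and 0.49 and 0.57 at 2 h, all still called. The calls of Spry1, Spry2 and Spred1 against 0 h held in every alternative and without any single library.

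Spred2, a second neurofibromin partner, had the smallest range of the tested genes over the 24 libraries. Its LysM-Cre libraries had 9.67, 9.81 and 9.75 untreated, 9.82, 9.79 and 9.82 after 0.5 h, 9.96, 9.99 and 9.99 after 1 h, and 9.84, 9.74 and 9.82 after 2 h. The FosKO-labelled libraries had 9.68, 9.63 and 9.65, then 9.65, 9.63 and 9.55, then 9.73, 9.62 and 9.87, then 9.58, 9.45 and 9.41. Only the LysM-Cre group at 1 h stood above its 0 h group, and only the FosKO group at 2 h stood below. In LysM-Cre Spred2 rose by 0.24 at 1 h (SE 0.05, limma adjusted p 0.00121), and at 0.5 and 2 h it differed from 0 h by 0.07 and 0.05, not called. In the FosKO-labelled libraries it fell by 0.17 at 2 h (limma adjusted p 0.00769), with -0.04 at 0.5 h and 0.09 at 1 h not called. The rise at 1 h in LysM-Cre was 0.22 in the 19 high 18S libraries alone, where that group has 1 library, and was not called there (adjusted p 0.0815), and without FosKO replicate 2 the change at 1 h in that genotype was called (0.15, adjusted p 0.0346).

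Spry4, the inducible Sprouty gene of many growth factor-stimulated cells, was barely detected. It is ENSMUSG00000024427 at chr18:38586247-38601415, on the minus strand of the GRCm38 build, and is protein coding. Its values ran from 0.55 to 1.21, a linear value below 5 in all 24 libraries, so it did not enter the test. Of the 24 values, 11 lay within 0.02 of the lowest. The FosKO-labelled libraries had 0.56, 0.56 and 0.56 untreated, 0.55, 0.56 and 0.56 after 0.5 h, 0.81, 0.73 and 1.04 after 1 h, and 1.21, 0.94 and 1.13 after 2 h. LysM-Cre libraries had 0.56, 0.56 and 0.65, then 0.56, 0.56 and 0.70, then 0.55, 0.64 and 0.65, then 0.65, 0.83 and 0.88. After 1 h, and again after 2 h, the FosKO group lay above the LysM-Cre group without overlap, as 45.0% and 54.0% of the tested genes did not overlap in either direction. At 0.5 h it lay below without overlap, where nearly every value sat at the lower limit. When every gene of the table was tested, the difference was 0.25 at 1 h and 0.30 at 2 h (limma adjusted p 0.0378 and 0.00745). In that fit 4375 and 6050 of the 24273 genes were called at these times. Spry4 rose in FosKO-labelled libraries by 0.30 at 1 h and 0.53 at 2 h (limma adjusted p 0.0117 and 1.52e-05). Of the same 24273 genes 4247 and 8903 were called in these 2 comparisons. In LysM-Cre its change at 2 h was 0.20 and was not called (limma adjusted p 0.0658). The difference in response at 2 h was 0.33 and was not called either (limma adjusted p 0.0914). At this level a difference of the deposited values is hard to relate to reads, which are not given for each library.

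Of the 4 genes tested, LPS in LysM-Cre raised 2 at 0.5 h, when 7.24% of all 13901 tested genes were called, 3 at 1 h (35.8% of all) and 2 at 2 h, with 1 lowered (60.8% of all). In the FosKO-labelled libraries it raised 2 at 0.5 h (5.92% of all called), 2 at 1 h (32.6%), and 2 at 2 h with 2 lowered (62.1%). From 0.5 to 1 h 3 genes rose and Spry2 fell in LysM-Cre (26.8% of all called), whereas in FosKO-labelled libraries Spry1 and Spred1 rose, Spry2 fell and the step of Spred2 was not called (27.5%). From 1 to 2 h Spred1 rose and the other 3 fell in both genotypes, when 52.3% of all genes were called in LysM-Cre and 50.7% in FosKO-labelled libraries. At 0.5 h 2 genes of 4 is a larger share than that of all genes, whereas at 2 h most tested genes moved too. These shares were not tested against each other, and 4 genes make a coarse share. In the 19 high 18S libraries alone, with 1 LysM-Cre library at 1 h, 2 of the 4 steps from 0.5 to 1 h in LysM-Cre were called. Those of Spry2 (-0.31, from -0.37) and Spred2 (0.16, from 0.17) kept about their size and lost the call with fewer libraries. That of Spred2 was also lost without replicate 2 at 0.5 h or replicate 2 or 3 at 1 h, at 0.16 to 0.17, and its step in FosKO-labelled libraries was called without replicate 2 at 1 h (0.19, adjusted p 0.0089). The fall of Spred2 from 1 to 2 h in LysM-Cre was -0.16 in the same libraries, from -0.18, and was not called there.

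**Figure D2:**
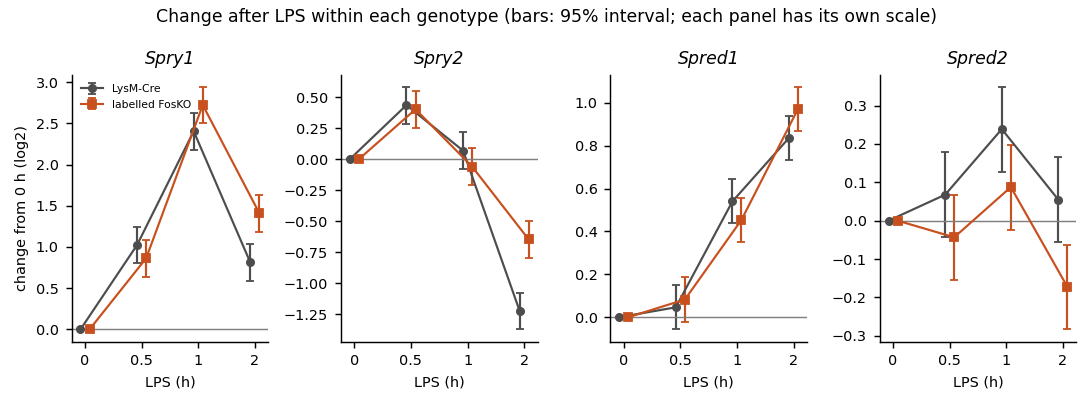
Change in log2 value from 0 h against hours of LPS in LysM-Cre (circles) and in FosKO-labelled libraries (squares), with 95% intervals from the limma fit. The 0 h points are 0 by construction, and each panel has its own scale. At 2 h the curves of Spry1 stand at 0.81 and 1.41 and those of Spry2 at -1.22 and -0.65.

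The labelled genotypes were then compared at each time, with Fos RNA as given above. Before LPS none of the 4 tested genes was called, against 35.4% of all genes. The differences, given as labelled FosKO minus LysM-Cre, were 0.04 for Spry1 (95% interval -0.18 to 0.26), -0.08 for Spry2 (-0.23 to 0.07), -0.04 for Spred1 (-0.15 to 0.06) and -0.09 for Spred2 (-0.20 to 0.02), and 0 of the 4 passed an unadjusted limma p of 0.05 either. The libraries of the genotypes overlapped for each of the 4, while those of 44.5% of all tested genes did not. After quantile normalisation Spred1 was called lower at 0 h (-0.15, limma adjusted p 0.00300) and at 0.5 h (-0.13, adjusted p 0.00681). The share of 0 of 4 is below that of all genes, though 4 genes make a coarse share.

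At 0.5 h Spred2 alone was called, against 40.9% of all genes. Its FosKO-labelled libraries, at 9.55 to 9.65, lay below those of LysM-Cre, at 9.79 to 9.82, a difference of -0.20 (SE 0.05, limma adjusted p 0.00418). Among the high 18S libraries it was -0.22, and between the low ones, 1 per genotype, it was -0.17. Spry1 differed by -0.12 (95% interval -0.34 to 0.10), Spry2 by -0.11 (-0.26 to 0.04) and Spred1 by -0.0058 (-0.11 to 0.10). In the high and low 18S sets these were -0.07 and -0.22 for Spry1, -0.07 and -0.19 for Spry2, and 0.02 and -0.06 for Spred1. The Spry2 groups did not overlap at 0.5 h, as was so for 50.8% of all tested genes, and the difference was not called.

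At 1 h the genes parted, with Spry1 higher and Spry2 and Spred2 lower in FosKO-labelled libraries, when 33.9% of all genes were called. Spry1 was 6.69 to 6.77 against 6.25 to 6.49, a difference of 0.36 (SE 0.11, limma adjusted p 0.0129). Among high 18S libraries it was 0.50, and among low ones 0.25. Without LysM-Cre replicate 1, the lowest control library, it was 0.29 and lost its call (adjusted p 0.0683). Spry2 differed by -0.21 (SE 0.07, adjusted p 0.0289) with overlapping libraries, and by -0.22 among high and -0.26 among low 18S libraries. Its call was lost without LysM-Cre replicate 1 (-0.18) or 3 (-0.17) and without FosKO replicate 1 (-0.17) or 2 (-0.18), with adjusted p from 0.0950 to 0.127, and also when only the groups compared were fitted. Spred2 differed by -0.24 (SE 0.05, adjusted p 0.00120), with -0.22 among high and -0.26 among low 18S libraries, and kept its call without any single library. Spred1 differed by -0.13 (SE 0.05, adjusted p 0.0503, 95% interval -0.23 to -0.03), and was not called, with -0.08 and -0.16 in the high and low 18S sets. Its libraries did not overlap, which held for 45.0% of all tested genes at 1 h, and 5 alternatives called it lower, among them quantile normalisation (-0.20, adjusted p 0.000209). In the high 18S libraries alone the LysM-Cre group at 1 h is replicate 1 by itself, the lowest control for Spry1, and its spread is taken from the other groups. Of the 3 calls that of Spry1 remained there, so it is no separate support, and those of Spry2 and Spred2, whose values hardly moved, were lost with fewer libraries.

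At 2 h Spry1 and Spry2 were higher and Spred2 was lower in FosKO-labelled libraries, when 44.6% of all genes were called. Spry1 stood at 5.31 to 5.56 against 4.64 to 4.95, a 1.55-fold difference of 0.64 (SE 0.11, limma adjusted p 5.25e-05). Spry2 stood at 7.36 to 7.53 against 6.86 to 7.11, a 1.41-fold difference of 0.50 (SE 0.07, adjusted p 8.54e-06). Spred2 stood at 9.41 to 9.58 against 9.74 to 9.84, a difference of -0.32 (SE 0.05, adjusted p 4.92e-05). In each of these 3 the libraries of the genotypes did not overlap, as in 54.0% of all tested genes at 2 h. All 12 libraries at 0 and 2 h were in the high 18S set, and the calls held without any single library. Spred1 differed by 0.09 (95% interval -0.01 to 0.20, adjusted p 0.135) and was not called, although its FosKO libraries (13.74 to 13.82) lay above those of LysM-Cre (13.66 to 13.69), and after quantile normalisation its difference was -0.08. It was called higher when only the groups compared were fitted (adjusted p 0.0285). The median difference of the 4 tested genes at 2 h was 0.30, beside 0.0040 over all tested genes, but the 4 did not move together.

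**Figure D3:**
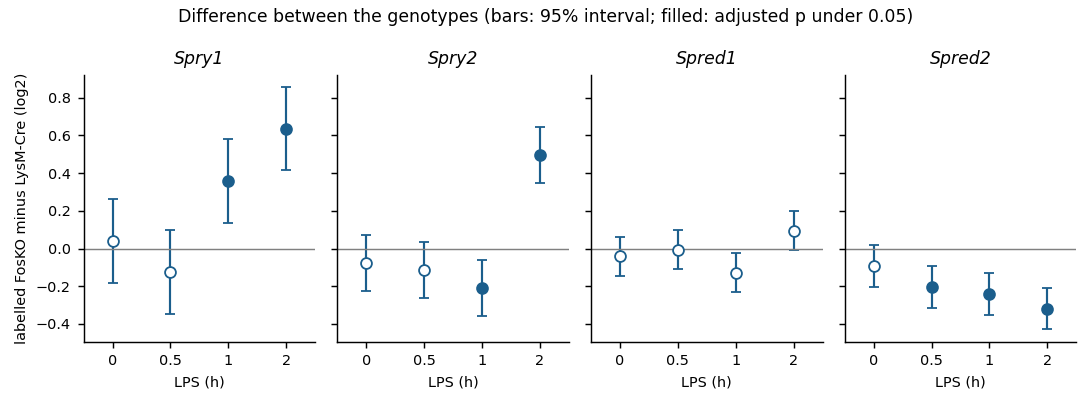
Difference in log2 value, labelled FosKO minus LysM-Cre, for the 4 tested genes against hours of LPS, with 95% intervals from the limma fit, and filled points where the adjusted p was under 0.05. Spry1 and Spry2 reach 0.64 and 0.50 at 2 h, Spred2 goes from -0.09 at 0 h to -0.32 at 2 h, and no point of Spred1 is filled.

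Whether the genotypes differed in how far LPS moved each gene was then tested directly. At 0.5 h none of the 4 genes was called, as few were in the table (0.115% of all), with unadjusted p from 0.154 to 0.742. At 1 h none was called either, against 1.22% of all, although the response of Spry1 was larger by 0.32 in FosKO-labelled libraries at an unadjusted p of 0.0476 (adjusted p 0.644). At 2 h 3 of the 4 were called, against 15.0% of all genes. The response of Spry1 was higher by 0.60 (SE 0.15, limma adjusted p 0.00945), that of Spry2 was higher by 0.58 (SE 0.10, adjusted p 0.000441), which for Spry2 means a smaller fall, and that of Spred2 was lower by 0.23 (SE 0.07, adjusted p 0.0459). The Spry1 and Spry2 calls held in every alternative and without any single library. That of Spred2 was lost in 9 of the 12 fits without a single library and was kept only without replicate 2 of LysM-Cre at 0 or 2 h or replicate 1 of FosKO at 2 h, with values from -0.28 to -0.19 and adjusted p from 0.0174 to 0.124. For Spred1 the difference in response at 2 h was 0.14 (95% interval -0.01 to 0.28, adjusted p 0.221), and it was called only without FosKO replicate 3 at 0 h (0.19, adjusted p 0.0480).

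The other family members, Spry3 and Spred3, fell after LPS rather than rising. Spry3 averaged 4.52 at 0 h and 3.20 at 2 h in LysM-Cre, a fall by 1.31 (SE 0.13, limma adjusted p 3.36e-08), and fell by 1.14 in FosKO-labelled libraries. Spred3 averaged 6.26 and 5.53 in LysM-Cre and fell by 0.73 there and by 0.75 in FosKO-labelled libraries (adjusted p 1.41e-05 and 9.95e-06). Between the genotypes Spry3 was not called at any time, and at 2 h its difference was 0.02 (95% interval -0.26 to 0.30). Spred3 was called only at 2 h, at -0.32 (adjusted p 0.0322), a call that was lost after quantile normalisation.

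Other feedback inhibitors of the pathway, 12 genes that act on receptors, on RAS or on ERK itself, moved in both directions between the genotypes. At 2 h 4 were higher and 6 lower in FosKO-labelled libraries, when 44.6% of all genes were called, with a median difference of -0.14 beside 0.0040 over all tested genes, and after quantile normalisation 2 were higher and 6 lower. Errfi1, which inhibits the EGF receptor kinase, differed by -1.28 (limma adjusted p 3.68e-11). Dusp5, a nuclear phosphatase of ERK, differed by -0.70 and Lrig1, which lowers receptor levels, by -0.68 (adjusted p 9.71e-08 and 9.32e-05). At 0, 0.5 and 1 h the counts were 1, 2 and 2 higher and 6, 6 and 5 lower, against 35.4%, 40.9% and 33.9% of all genes called. Errfi1 and Dusp5 were also the most LPS-inducible of the list, with rises of 4.22 and 3.62 at 1 h in LysM-Cre. The response to LPS at 1 h was higher for 2 of the 12 and lower for 3 in FosKO-labelled libraries (1.22% of all genes called). At 2 h it was higher for 4 and lower for 2 (15.0%). Among those higher was Dusp6, the cytoplasmic ERK phosphatase, which fell by 1.23 at 1 h and by 1.94 at 2 h in LysM-Cre. Its response at 2 h was higher by 0.70 in FosKO-labelled libraries (limma adjusted p 1.77e-05), as for Spry2 a smaller fall.

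**Figure D4:**
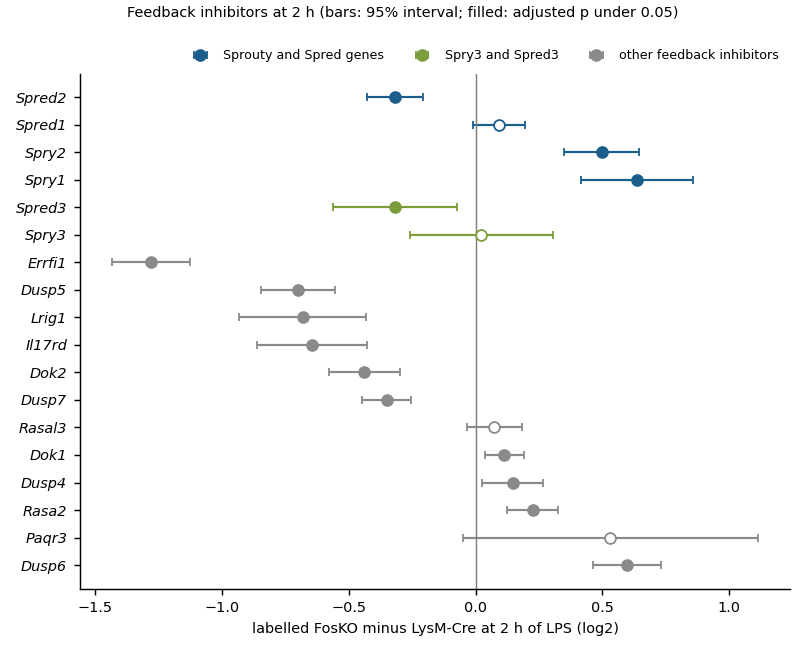
Difference in log2 value at 2 h of LPS, labelled FosKO minus LysM-Cre, for the 4 tested Sprouty and Spred genes, for Spry3 and Spred3 and for the 12 other feedback inhibitors, with 95% intervals from the limma fit and filled points where the adjusted p was under 0.05. The values run from -1.28 for Errfi1 to 0.64 for Spry1.

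Of the 17 partners and targets of Sprouty and Spred proteins, 7 were higher and 3 lower in FosKO-labelled libraries at 2 h, when 44.6% of all genes were called, with a median difference of 0.08 beside 0.0040 over all tested genes. Their direction depended on the scaling, since 4 were higher and 7 lower after quantile normalisation. The largest differences kept their sign. They were those of Cav1, the caveolin that binds Sprouty at the membrane (-2.45, limma adjusted p 1.79e-14), and of the growth factor receptor Fgfr1 (-1.49, adjusted p 1.45e-10). Nf1, which is named here outside the naming rule because Spred proteins act through it, was not called at 2 h (0.13, 95% interval -0.07 to 0.32) and was called only at 0.5 h (-0.25, adjusted p 0.0346). Of the 17 genes of the RAS-ERK core, 6 were higher and 2 lower at 2 h, a share close to the 44.6% of all genes, and 3 were higher and 6 lower after quantile normalisation. Ksr1, a scaffold of the ERK cascade, differed by -0.68, the adaptor Gab1 by 0.36 and Map3k8 by 0.27 (adjusted p 2.97e-07, 0.00126 and 0.000541). Map3k8 rose by 1.98 after 2 h of LPS in LysM-Cre.

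Of the 12 receptors tested, 4 were higher and 1 lower in FosKO-labelled libraries at 2 h, again close to the 44.6% of all genes, with 3 and 3 after quantile normalisation. Mertk, a receptor kinase for dying cells, differed by 1.65, the HGF receptor Met by -0.65 and the LPS receptor Tlr4 by 0.49 (limma adjusted p 6.21e-14, 0.000275 and 5.65e-08). Of the 11 tested transcripts that are known to follow ERK activity, 8 rose and 1 fell after 1 h of LPS in LysM-Cre, and the counts were again 8 and 1 in FosKO-labelled libraries, against 35.8% and 32.6% of all genes called. The early transcription factor genes Egr3 and Egr1 and the early gene Phlda1 rose most in LysM-Cre, by 3.06, 3.00 and 2.76. Between the genotypes 1 of the 11 was higher and 5 lower at 0 h (35.4% of all genes called), and 1 higher and 8 lower at 0.5 h (40.9%), with a median difference of -0.35 at 0.5 h. At 1 h 2 were higher and 3 lower (33.9%). At 2 h 5 were higher and 4 lower in FosKO-labelled libraries (44.6% of all genes called, and 3 and 4 after quantile normalisation), with Egr1 at 0.97, Phlda1 at 0.83 and Fosl1, which codes for the AP-1 subunit FRA-1, at -0.85. The difference in the 2 h response was higher for 5 of the 11 and lower for none, when 15.0% of all genes were called, with Phlda1 at 1.28, Egr1 at 1.18 and Egr3 at 0.64 (adjusted p 3.46e-08, 5.70e-06 and 0.00161). These genes share their libraries with Spry1 and Spry2, so the values stand side by side and are not independent of each other.

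The genes whose values were most like those of each member over the 24 libraries were found by Pearson r, as a description, since all points share the same 8 groups. For Spry1 they were Foxn2 (r = 0.979), A930011G23Rik (0.972) and Zfp622 (0.961). For Spry2 they were Tnrc18 (0.967), Tnrc6a (0.961) and Cttnbp2nl (0.957). Spred1 was most like Gripap1 (0.989), Stx11 (0.988) and Abracl (0.987). Spred2, with the smallest range among the 4 tested genes, had weaker matches in Ado (0.875), Fosl1 (0.874) and Micall1 (0.873).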

How the data were processed

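RNA sequencing was analysed in 24 libraries of BMDMs, 3 in each of 8 groups of labelled genotype and LPS time. Per the methods, stranded TruSeq libraries were read from one end on a HiSeq 2500 and mapped to mm10. The submitters' processing notes name STAR 2.5.2a, RSEM 1.2.31 and DESeq2 1.16.1. The values are normalised log2 values that the authors deposited. Their transformation is not given in the sources used here, but low genes vary little, so that differences of low genes may be understated. The methods state a typical yield, but the reads of each library are not given, and normalised values do not keep them. Of 24273 genes, 13901 with a linear value (2 to the power of the log2 value) of at least 5 in at least 3 libraries were tested.

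One limma fit (limma 3.58.1, R 4.3.3) with 8 group means and 16 residual degrees of freedom, moderated with a trend on the mean, gave 4 genotype, 6 LPS, 3 response and 4 step comparisons, with two-sided p-values that were adjusted for the 13901 genes (Benjamini-Hochberg) and called under 0.05. With 3 libraries against 3 an exact permutation test cannot go below 0.1, so none was used. The scripts were tested on simulated data. The members and gene lists were chosen with earlier results of these data known. From each list, up to 3 called genes with the largest difference per comparison are named, and for each member the 3 genes with the highest Pearson r. A gene that this rule would name is not reported here. Other symbols are markers or label checks, or are said to lie outside this rule. Identifiers were looked up in GENCODE vM21 (99.7% found), and promoters come from a RefSeq table of GRCm38.p6, where 4 of the 5 genes were matched. Alternatives were quantile normalisation, other filters, a pseudocount of 1, no trend, fewer groups, 18S content as a term or the high 18S libraries alone, replicate blocks and each library left out in turn.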

Additional observations from a re-analysis of the deposited data

Results flagged for a closer look

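The change from 0 to 2 h of LPS differed between the labelled genotypes for 3 of the 4 tested genes, by the test of the difference itself. In that test 15.0% of all tested genes were called. The change was higher by 0.60 on the log2 scale for Spry1 (1.41 against 0.81) and higher by 0.58 for Spry2 (-0.65 against -1.22) in FosKO-labelled libraries. For Spred2 the difference in response was -0.23 (-0.17 against 0.05). The limma adjusted p was 0.00945, 0.000441 and 0.0459, and over the alternatives, leaving libraries out aside, it ranged from 0.00466 to 0.0318 for Spry1, from 0.000204 to 0.00319 for Spry2 and from 0.0415 to 0.0907 for Spred2. The Spred2 call was lost in 4 of these 10 alternatives and in 9 of the 12 fits without a single library (adjusted p from 0.0174 to 0.124).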

How the results depend on the processing

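After quantile normalisation the count of the 4 tested genes called between the genotypes was 1 at 0 h and 2 at 0.5 h. As deposited it was 0 and 1, and both shifts came by way of Spred1. Of all 13901 tested genes 5039 and 5800 were called after quantile normalisation, beside 4919 and 5689 as deposited. In the high 18S libraries alone the Spry2 and Spred2 calls between the genotypes at 1 h were lost. There the differences were -0.22 and -0.22, beside -0.21 and -0.24 in all libraries. Their calls for the step from 0.5 to 1 h in LysM-Cre were also lost there, at -0.31 from -0.37 and 0.16 from 0.17. Between the genotypes, Spred1 was also called in 5 alternatives at 1 h and in 1 at 2 h. For the difference in response at 2 h, the Spred2 call was lost in 4 of 10 alternatives. Leaving out each library in turn gave counts from 1 to 3 at 1 h between the genotypes, with 3790 to 4766 of all tested genes called. For the difference in response at 2 h these counts ran from 2 to 3, with 1687 to 2105 of all tested genes called. There the Spred2 call was lost in 9 of 12 fits, and without FosKO replicate 3 at 0 h Spred1 was called. For the 4 tested genes, signs turned only for differences that were not called. Quantile normalisation turned Spred1 to -0.080 between the genotypes at 2 h, to -0.023 at 0.5 h of LPS in LysM-Cre and to -0.0038 at 0.5 h in FosKO-labelled libraries, and Spred2 to -0.029 at 2 h of LPS in LysM-Cre. The high 18S libraries alone turned Spred1 to 0.021 between the genotypes at 0.5 h and the Spry2 difference in response at 0.5 h to 0.0058. With single libraries left out, the genotype difference ranged from -0.016 to 0.11 for Spry1 at 0 h, from -0.10 to 0.0010 for Spred1 at 0 h and from -0.077 to 0.033 for Spred1 at 0.5 h. The difference in response at 0.5 h ranged from -0.063 to 0.015 for Spry2 and from -0.035 to 0.094 for Spred1. The high 18S libraries hold 1 LysM-Cre library at 1 h, so calls lost there come with fewer samples. The cause of the other shifts was not tested. With a library left out in turn, 452 values of single genes kept their sign and side of the threshold, 17 lost a call, 3 gained one and 8 changed sign, and under the other settings 639 kept both, 11 lost a call, 8 gained one and 6 changed sign. Among all called genes, quantile normalisation moved the share that was higher between the genotypes from 53.1% down to 42.8% for 1 h and from 54.6% down to 43.0% for 2 h. After LPS in LysM-Cre the share was 70.3%, 53.8% and 50.3% as deposited at the successive times, against 48.3%, 37.6% and 40.0% with quantile normalisation. In FosKO-labelled libraries it was 75.2%, 54.0% and 52.5% as deposited, against 50.3%, 35.3% and 39.2%. For the step from 0.5 to 1 h it was 52.2% against 41.9% in LysM-Cre and 52.7% against 39.1% in FosKO-labelled libraries, and for the later step in these 53.6% against 42.1%. Replicate numbers are shared between groups, but same-numbered libraries of one genotype deviated together (r over 0.1) in 12 of 36 pairs, not in all, so the numbers were not taken to pair them. Differently numbered ones did so in 4 of 72 pairs, and 22 of the 24 libraries correlated best with their own number within the genotype, which is a hint from the data, not the design, of a pairing within genotypes. With the replicate block, Spred1 at 1 h between the genotypes was called lower (-0.13, limma adjusted p 0.0229), and no other call of these genes changed. A replicate block within each genotype, fitted for the LPS, step and response comparisons, changed no call. The reads of each library are not given, which limits what the values of Spry4 can show.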
